A study of Caenorhabditis elegans with 3 samples.

Results

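The Pumilio family of Caenorhabditis elegans, the puf and fbf genes, was followed here in animals whose germline makes oocytes and in animals whose germline makes sperm. The members were chosen by name, as the rows of the deposited table whose gene symbol on the array platform, or current name, is puf-3, puf-5, puf-6, puf-7, puf-8, puf-9, puf-11, puf-12, fbf-1 or fbf-2. These 10 genes had 10 rows among 21611: 7 genes had rows of their own, puf-3 and puf-11 shared 1 row, and no row was named fbf-1, which was therefore not analysed here. Of the 7, puf-6 and puf-9 had 2 rows each. All 10 rows had a value on every array, so no member was lost to missing values.

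RNA of fem-1(lf) and fem-3(gf) animals was hybridised together on 3 arrays of 2 colours, with 1 prep of each genotype per array (preps 1 to 3). Loss of function of fem-1, written fem-1(lf), is known to feminise the germline, so that XX animals form oocytes but no sperm. Gain of function of fem-3, written fem-3(gf), is known to masculinise it, so that XX animals form sperm but no oocytes. The sources used here name no allele, age or growth temperature. Nothing in the labels ties the preps to separate cultures, and p-values thus measure only the spread between these arrays. Every value below is a log2 ratio of the channels of an array. Positive values likely stand for more RNA in fem-1(lf), since the descriptions list that genotype first and its RNA is the source of channel 2, but no dye is named. The oocyte and sperm markers given below lie on the sides that the known germlines of these genotypes call for.

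PUF proteins are named for Pumilio of Drosophila and FBF of C. elegans. They grip short elements in the untranslated end of messenger RNAs through a row of repeats, and they repress those messengers with partner proteins and with enzymes that shorten the poly(A) tail. FBF stands for fem-3 binding factor: FBF-1 and FBF-2 bind the element of fem-3 in which gain-of-function mutations of that gene were found, and by repressing fem-3 they let the germline of the hermaphrodite switch from sperm to oocytes. Family members divide the work of the worm's germline, some in the stem cells and some in growing oocytes, and PUF-9 acts in the soma.

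The mutated genes and the markers were looked at first. The log2 ratio of fem-3 was 2.18, 1.62 and 1.47 on the arrays of preps 1, 2 and 3 (1.76 ± 0.38, SD, n = 3, limma adjusted p = 0.000751), and that of fem-1 was -0.20, 0.13 and 0.19 (0.04 ± 0.21, adjusted p = 0.83). The labels do not say that either mutation deletes what the spot detects, and these levels therefore do not check them. All 6 oocyte markers (oma-1, oma-2, rme-2, cpg-1, cpg-2 and chs-1) were higher in fem-1(lf), with means between 2.10 and 3.49, and all 8 sperm markers were higher in fem-3(gf), with means between -5.80 and -1.63. The 4 markers of the stem cell region (glp-1, lag-1, lst-1 and sygl-1) were also higher in fem-1(lf), with means between 0.91 and 1.90. Of the 17 tested markers of muscle, intestine, neurons and epidermis, 7 were higher in fem-3(gf) and 10 did not pass, and of the 3 tested markers of the somatic gonad 2 were higher in fem-3(gf). These are whole-animal RNAs, in which fewer cells of a type and less RNA per cell cannot be told apart. The part of the makeup of the germline in the values of the PUF genes was not tested.

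Across the family, 6 of the 8 measured features were higher in fem-1(lf), 2 did not pass and none was higher in fem-3(gf) (limma, adjusted p under 0.05 over 19731 features, 0 also at an unadjusted p under 0.05). Of all features, 21.0% were called as higher in fem-1(lf) and 23.7% as higher in fem-3(gf). Of the 8 PUF features 5 were called with a 2-fold or larger ratio toward fem-1(lf), against 8.43% of all features, and 0 with one toward fem-3(gf), against 10.2%. A ratio of 4-fold or more was reached by 3 of them, against 1.02%. These counts take puf-6 and puf-7 as separate features, although a spot of one may bind RNA of the other. The median of the 8 means was 1.61, beside -0.10 over all features. With each row tested on its own, 7 of the 8 had a row called higher in fem-1(lf) (21.2% of all rows), and 1 of the 2 rows of puf-9 was called higher in fem-3(gf), where 23.5% of all rows were. Setting 0 at the median of the muscle, intestine, neuron and epidermis markers moved the median of all features to 0.27 and the shares called to 36.0% and 11.4%, and 7 of the 8 PUF features were then higher in fem-1(lf).

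**Figure D1:**
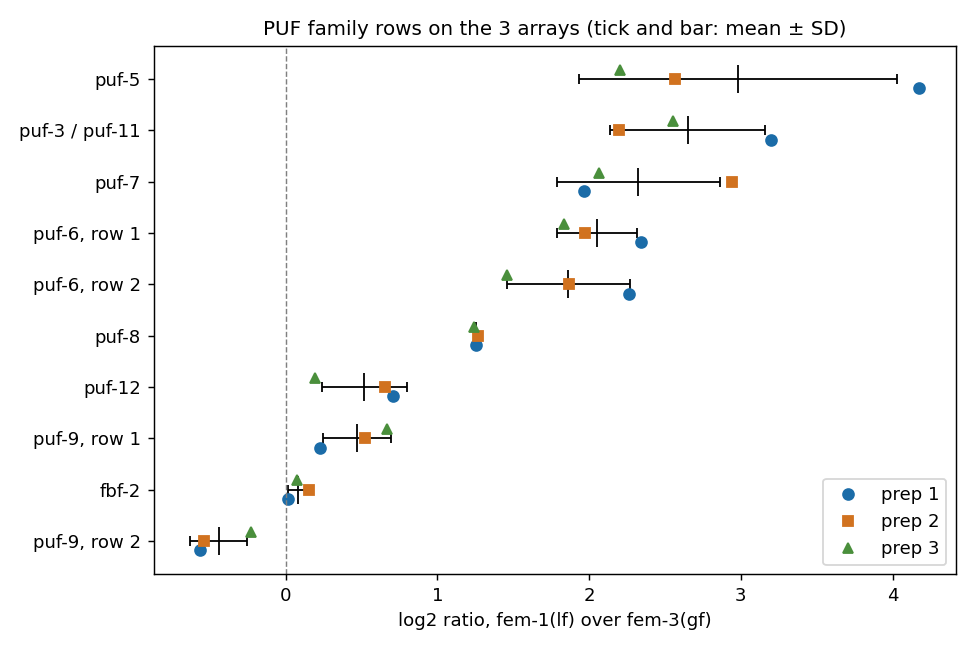
Log2 ratio of fem-1(lf) over fem-3(gf) of each of the 10 PUF family rows on the arrays of preps 1, 2 and 3 (symbols), with the mean (tick) and SD (bar) over the 3 arrays. The rows of puf-5, puf-3 and puf-11, puf-7 and puf-6 lie between 1.46 and 4.17 on every array, puf-8 lies near 1.25 with almost no spread, and the 2 rows of puf-9 lie on opposite sides of 0.

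The highest means of the family were those of puf-5, the shared row of puf-3 and puf-11, puf-7 and puf-6. Below they are called the oocyte group, a grouping made after the values were seen. The gene puf-5 (F54C9.8, chromosome II), whose product is needed for oocytes to form and represses the Notch receptor gene glp-1 during oogenesis, had log2 ratios of 4.17, 2.57 and 2.20 on the arrays of preps 1, 2 and 3. All were far above 0, and that of prep 1 stood apart from the others. Its mean was 2.98 ± 1.05 (SD, n = 3), a 7.90-fold higher level in fem-1(lf) with a 95% interval of 4.12 to 15.1 (limma adjusted p = 0.002). It stood at percentile 99.93 of the means of all features, and its SD at percentile 98.82 of all SDs. Without prep 1 its mean was 2.38, or 5.22-fold, and it still passed the test.

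The genes puf-6 (F18A11.1, chromosome II) and puf-7 (B0273.2, chromosome IV) encode close relatives of PUF-5 that act with it in oogenesis. One row of puf-6 gave 2.34, 1.98 and 1.84 on the 3 arrays, and the other gave 2.27, 1.86 and 1.46. Prep 1 was thus the highest in both rows, which differed by 0.19 ± 0.17 on average (SD, n = 3), which is less than the median gap of 0.26 between the rows of the 1355 genes with exactly 2 rows. Averaged over the rows, puf-6 had a mean of 1.96 ± 0.33, a 3.88-fold higher level in fem-1(lf) (limma adjusted p = 0.00039). The row of puf-7 gave 1.96, 2.94 and 2.07, so here prep 2 and not prep 1 was the highest. Its mean of 2.32 ± 0.54 is a 5.01-fold difference (adjusted p = 0.000641), with a 95% interval of 3.45 to 7.26 on the scale of folds. PUF-6 and PUF-7 are much alike in sequence, and a spot of one may bind RNA of the other, so that their separate levels are uncertain.

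The row shared by puf-3 (Y45F10A.2) and puf-11 (Y73B6BL.38), both on chromosome IV, gave 3.20, 2.20 and 2.55. Their products act redundantly in late oogenesis and also help FBF to keep germline stem cells. All 3 values were high, and the mean of 2.65 ± 0.51 (SD, n = 3) is a 6.28-fold difference (limma adjusted p = 0.000337). The platform gives this spot to both genes, so the value may come from either or from their sum, and nothing can be said of one gene alone. The oocyte group was made of puf-5, puf-6, puf-7 and the shared row. This grouping was not planned in advance and holds the 4 highest means of the family. A gap to the other features is therefore not a test of it. The lowest value of the group was 1.96, 1.92 and 1.65 on preps 1, 2 and 3. The highest of the other features was 1.26, 1.27 and 1.24 on these arrays. The mean of the 4 was 2.91, 2.41 and 2.12, and the median of the 6 oocyte markers, none of them a PUF gene, was 3.41, 2.61 and 2.59 on the same arrays. Both were highest in prep 1. The array of prep 1 also had the widest spread over all rows. Its SD was 1.35, against 1.15 and 1.22 for preps 2 and 3.

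**Figure D2:**
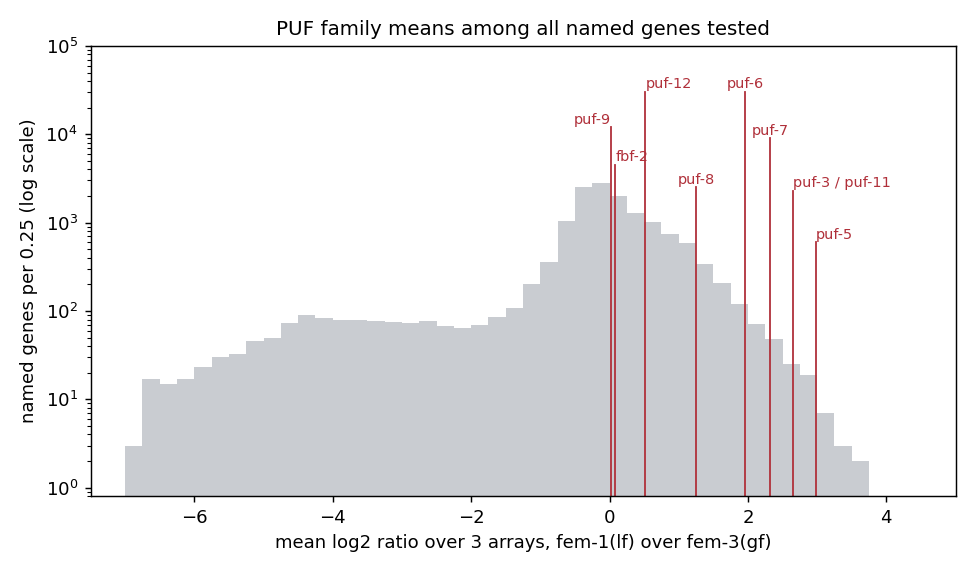
Number of named genes (log scale) by mean log2 ratio of fem-1(lf) over fem-3(gf) in steps of 0.25, with the means of the 8 PUF family features as red lines. The heights of the red lines only separate the names. The features of puf-5, puf-3 and puf-11, puf-7 and puf-6 lie in the far right tail, puf-8 and puf-12 on the right slope, and fbf-2 and puf-9 near the peak.

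The germline regulators puf-8 and fbf-2 differed in their ratios. The gene puf-8 (C30G12.7, chromosome II) encodes a regulator of stem cell proliferation and of the choice between sperm and oocytes, which also keeps spermatocytes from returning to mitosis. It gave 1.26, 1.27 and 1.24, which are nearly the same on each array. Its mean of 1.25 ± 0.015 (SD, n = 3) is a 2.39-fold higher level in fem-1(lf) (limma adjusted p = 0.000546). This SD stood at percentile 0.362 of all SDs, and limma widens so small a spread with the variance shared across features, to a 95% interval of 1.97 to 2.89 on the scale of folds.

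The gene fbf-2 (F21H12.5, chromosome II), whose product maintains germline stem cells together with FBF-1, gave 0.02, 0.15 and 0.07. The values lay just above 0 on each array, and the mean of 0.08 ± 0.07 (SD, n = 3) did not pass (limma adjusted p = 0.59). The 95% interval of the level in fem-1(lf) over fem-3(gf) ran from 0.869 to 1.29, so a difference as large as those of the oocyte group or of puf-8 lies outside it, on the scale as deposited. With 0 at the somatic markers fbf-2 was at 0.46 and just passed (adjusted p = 0.047). FBF-1 and FBF-2 are nearly identical in sequence, so the spot named fbf-2 may also report fbf-1. In the gene table of assembly WBcel235 only 1 protein-coding gene, F21H12.3, lies between fbf-1 and fbf-2.

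The somatic member puf-9 (W06B11.2), the only one of the family on the X chromosome, gave 2 answers. PUF-9 acts in the epidermis and represses the heterochronic gene hbl-1. One row gave 0.23, 0.52 and 0.67 (0.47 ± 0.22, SD, n = 3, limma adjusted p = 0.037 with each row on its own), and the other gave -0.56, -0.54 and -0.23 (-0.44 ± 0.19, adjusted p = 0.039). The rows were on opposite sides of 0 on all 3 arrays, with a gap of 0.92 ± 0.14, and 10.8% of the genes with 2 rows had a larger gap. Averaged over the rows, the gene was at 0.01 ± 0.19 (adjusted p = 0.94), a value that stands for neither row. No direction can be given for puf-9.

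The most distant relative, puf-12 (ZK945.3, chromosome II), is related to the human nucleolar protein PUM3 and not to the germline repressors. It gave 0.70, 0.65 and 0.19, all above 0, with prep 3 far below the others. The mean of 0.52 ± 0.28 (SD, n = 3) is a 1.43-fold difference (limma adjusted p = 0.035). The call was lost without prep 1 (0.42, adjusted p = 0.094) and without prep 2 (0.45, adjusted p = 0.15). It was also lost at an adjusted p under 0.01 and under limma treat against a 1.5-fold difference.

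In the order of the 8 means, from puf-5 through the shared row of puf-3 and puf-11, puf-7, puf-6, puf-8, puf-12 and fbf-2 to puf-9, neighbours within the oocyte group changed places between arrays. The shared row exceeded puf-5 in prep 3, puf-7 exceeded the shared row in prep 2, and puf-6 exceeded puf-7 in prep 1, so their order is within the spread between arrays. The steps from puf-6 to puf-8, from puf-8 to puf-12 and from puf-12 to fbf-2 ran the same way on all 3 arrays, with mean differences of log2 ratios of 0.70 ± 0.32, 0.74 ± 0.27 and 0.44 ± 0.29 (SD, n = 3). The step from fbf-2 to puf-9 was 0.07 ± 0.18 and changed sign in prep 3. Such comparisons are of ratios, not of the levels of different spots.

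Relatives were also compared in 4 pairs by an exact two-sided sign permutation test over the 3 arrays, which cannot give a p under 0.25. The ratio of puf-5 exceeded that of puf-6 on 3 of 3 arrays, by 1.02 ± 0.73 (SD, n = 3, exact p = 0.25, adjusted over the 4 pairs 0.50), and that of puf-7 on 2 of 3, by 0.66 ± 1.37 (exact p = 0.75, adjusted 0.75). The difference of puf-6 minus puf-7 was -0.37 ± 0.68 (exact p = 0.50, adjusted 0.67). For these pairs the 95% intervals of the difference reached from -0.80 to 2.85, from -2.74 to 4.06 and from -2.06 to 1.33, so the data do not show whether the 3 genes differ in their ratios. The ratio of puf-8 exceeded that of its closest relative puf-9, averaged over both rows of puf-9, on 3 of 3 arrays by 1.24 ± 0.20 (exact p = 0.25, adjusted 0.50), with an interval of 0.73 to 1.75 that assumes normal errors. Against each row of puf-9 on its own, a comparison added after seeing the data, the difference was 0.78 ± 0.23 and 1.70 ± 0.20 (SD, n = 3, exact p = 0.25 for both).

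The named genes with the pattern most like puf-5, by the Euclidean distance of the log2 ratios over the 3 arrays, were ZC308.4, cpg-3 and pos-1. ZC308.4 lay at a distance of 0.21, with values of 4.12, 2.53 and 2.40. The gene cpg-3, which encodes a chondroitin proteoglycan, lay at 0.24, with 4.18, 2.40 and 2.37, and pos-1, which encodes a maternal zinc finger protein that binds RNA, at 0.41, with 3.81, 2.43 and 2.32. Each was highest in prep 1, as puf-5 was, which follows from their choice by this distance. Only 4 named genes outside the family lay within 0.5 of puf-5. At the other end, puf-9 as averaged over its rows had 3034 such genes, led by nhr-94, F01G10.6 and irld-21 at distances of 0.0079, 0.016 and 0.027.

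Genes that encode partners of PUF proteins mostly lay on the fem-1(lf) side. Of 14 listed, 13 were tested: 11 were higher in fem-1(lf), 1 was higher in fem-3(gf) and 1 did not pass, with a median log2 ratio of 1.12 (all features: 21.0%, 23.7% and -0.10). This list and those of poly(A) tail removal and of reported targets below were chosen with earlier results of these data known. Their counts beside the shares of all features are therefore no independent test. The Nanos genes nos-2 and nos-1, whose products act with PUF proteins in germ cells, had the largest values, with 2.69, 2.51 and 1.96 for nos-2 (2.39 ± 0.38, SD, n = 3, limma adjusted p = 0.000242) and 2.14, 1.38 and 1.73 for nos-1 (1.75 ± 0.38, adjusted p = 0.000779). Both were well above 0 on each array. The stem cell partners lst-1 and sygl-1, which are targets of Notch signalling and bind FBF, were at 0.91 ± 0.12 and 1.42 ± 0.38 (adjusted p = 0.00224 and 0.00166). On the other side stood cpb-1, a CPEB gene whose product binds FBF and is needed for spermatogenesis, at -0.89, -1.22 and -0.97 (-1.03 ± 0.17, adjusted p = 0.00183). The poly(A) polymerase gene gld-2 did not pass, at 0.08 ± 0.08 (adjusted p = 0.62).

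Genes of poly(A) tail removal, the step that PUF proteins promote on their targets, showed smaller differences in the same direction. Of 13 listed, 9 were tested: 6 were higher in fem-1(lf), 1 was higher in fem-3(gf) and 2 did not pass, with a median of 0.68 (all features: 21.0%, 23.7% and -0.10). The deadenylase genes ccr-4 and ccf-1, which encode the catalytic subunits of the CCR4-NOT complex, were at 1.08 ± 0.50 and 0.91 ± 0.34 (SD, n = 3, limma adjusted p = 0.0088 and 0.0068). The values of ccr-4 were 1.64, 0.74 and 0.84, highest in prep 1, and those of ccf-1 were 1.09, 0.53 and 1.13, lowest in prep 2. The exception was parn-1, a nuclease gene whose product trims piRNAs, at -0.71 ± 0.18 (adjusted p = 0.0075), which did not pass with 0 at the somatic markers (-0.33). No gene of this list passed limma treat against a 1.5-fold difference.

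**Figure D3:**
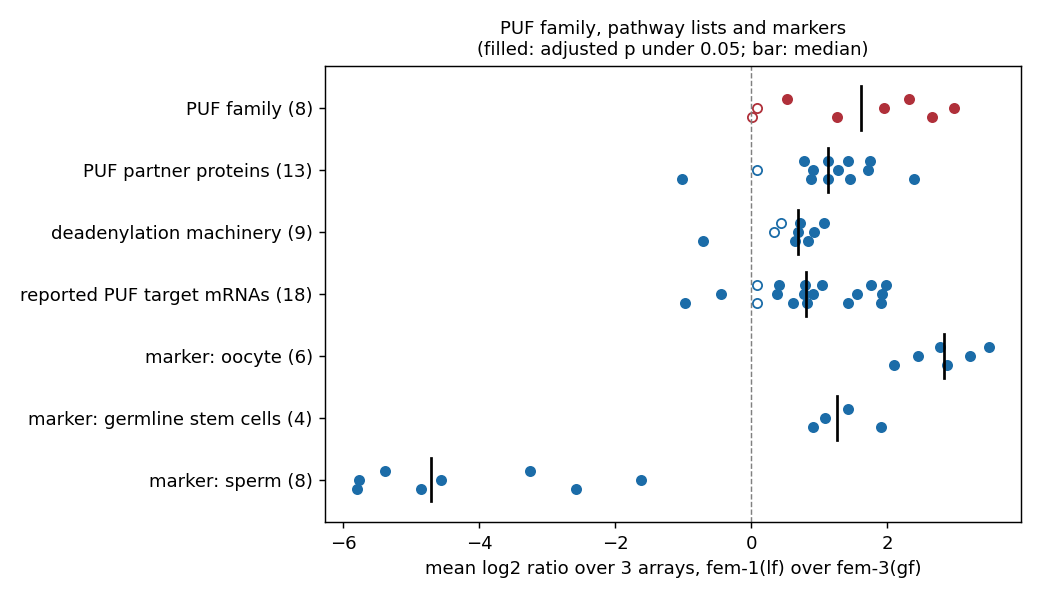
Mean log2 ratio of fem-1(lf) over fem-3(gf) of each tested gene of the PUF family, of 3 pathway lists and of the oocyte, stem cell and sperm markers, with the number tested in parentheses. Filled points passed limma at an adjusted p under 0.05, and bars are list medians. Some genes are drawn more than once. The gene fbf-2 stands both in the family and among the targets, and gld-2 and gld-3 among partners and targets. The stem cell marker glp-1 is also a target, and the stem cell markers lst-1 and sygl-1 are also partners and targets. The medians are 1.61 for the family, 1.12, 0.68 and 0.80 for the pathway lists, and 2.83, 1.25 and -4.71 for the markers.

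Messengers reported as targets of PUF proteins mostly lay on the fem-1(lf) side, with exceptions. Of 22 listed, 18 were tested: 14 were higher in fem-1(lf), 2 were higher in fem-3(gf) and 2 did not pass, with a median of 0.80 (all features: 21.0%, 23.7% and -0.10). The homeobox gene pal-1, a caudal homolog reported as a target of PUF-8, had 2.72, 1.56 and 1.64 (1.97 ± 0.65, SD, n = 3, limma adjusted p = 0.00197), and gld-1, a translational repressor gene that FBF represses in stem cells, had 2.53, 1.47 and 1.76 (1.92 ± 0.55, adjusted p = 0.00134). Both were highest in prep 1. The receptor gene glp-1, target of PUF-5, PUF-6 and PUF-7, was at 1.90 ± 0.12 (adjusted p = 0.000137). The features of puf-5, puf-6 and puf-7 were higher in the same animals. Whether their RNA levels bear on that of glp-1 was not tested. A second row that the platform gives to gld-1 and to B0280.11 together was not used.

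In the opposite direction, hbl-1, the target of PUF-9, had -0.76, -1.06 and -1.11 (-0.98 ± 0.19, SD, n = 3, limma adjusted p = 0.0024), a 1.97-fold higher level in fem-3(gf). The cell cycle inhibitor gene cki-2, a target of FBF, was at -0.45 ± 0.08 (adjusted p = 0.025). This call was lost without prep 1, 2 or 3 (adjusted p = 0.051, 0.075 and 0.14), after median centring (0.055) and with 0 at the somatic markers (0.76). The sperm fate gene fog-3, singled out after its values were seen, had no value in prep 1 and -3.06 and -3.51 in preps 2 and 3, and so was left out of the counts above. Among features measured on at least 2 arrays it was called, at -3.28 ± 0.32 (SD, n = 2, limma adjusted p = 0.000379), and 3 targets were then higher in fem-3(gf). Most of the tested list was thus higher in fem-1(lf), with a few genes on the other side. The 3 lists overlap in 4 genes, and over 45 different genes 36 were tested, of which 28 were higher in fem-1(lf), 4 were higher in fem-3(gf) and 4 did not pass (all features: 21.0% and 23.7%).

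**Figure D4:**
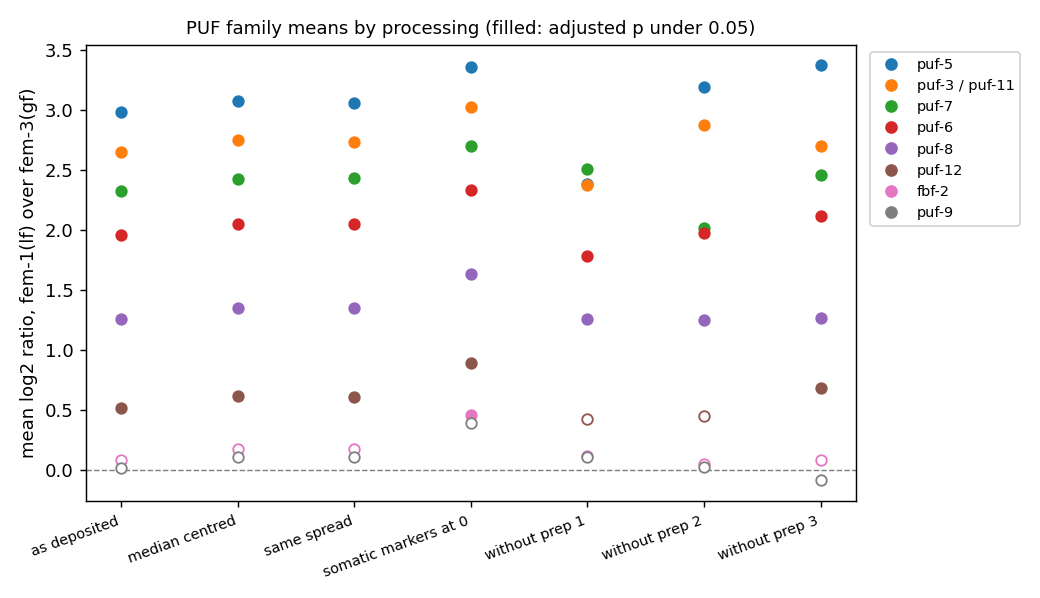
Mean log2 ratio of fem-1(lf) over fem-3(gf) of the 8 PUF family features as deposited, after 3 ways of setting 0 or the spread of the arrays, and without each prep. Filled points passed limma at an adjusted p under 0.05. The 4 features of the oocyte group and puf-8 passed in all 7 settings shown, puf-12 failed without prep 1 and without prep 2, and fbf-2 passed only with 0 at the somatic markers.

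The calls of puf-5, puf-6, puf-7, the shared row and puf-8 held in all 10 alternatives that keep each gene as 1 feature. In these, the mean lay between 2.38 and 3.37 for puf-5, between 2.37 and 3.02 for the shared row, between 2.02 and 2.70 for puf-7, between 1.78 and 2.33 for puf-6 and between 1.25 and 1.63 for puf-8. The order of puf-5, the shared row and puf-7 turned without prep 1, where puf-7 had the highest mean. A change of the zero subtracts 1 value per array from all rows, so it must move all 8 means by the same amount. Leaving out a prep moved them by different amounts.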

How the data were processed

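The authors deposited log2 ratios of the 2 channels of each array. The base was found from the values; the sources used here give no scaling, centring, background correction or dyes. No dye swap is stated, and spot intensities were not analysed here. The small number of arrays limits the precision, and effects of dye or of spot intensity were not tested.

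Gene names came from the platform annotation, updated with RefSeq genes of WBcel235. Of 21611 rows, 16450 carried a single gene (16360 found in RefSeq by gene ID, 8 by accession, 82 unmatched), 247 carried several and 4914 carried none. The rows of 1 gene were averaged within each array, and the row of puf-3 and puf-11 was kept as 1 feature. The 19731 features measured on all arrays were fitted as deposited with limma 3.58.1 in R 4.3.3 (lmFit against 0 and eBayes, two-sided, called at a Benjamini-Hochberg adjusted p under 0.05). An adjusted p is from this fit unless a sentence names another setting. Sign changes of 3 arrays give no p under 0.25, so a call depends on the variance that limma shares among features. Intervals of features are from limma, and those of pairs from the SD of 3 differences.

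On simulated data of 19731 features, with 100 shifted by a log2 ratio of 1 and 100 by 2, the fit recovered 54% and 96%, and 9 of 159 calls were false. The arrays themselves gave far more calls, 4147 toward fem-1(lf) and 4671 toward fem-3(gf). The Benjamini-Hochberg cutoff depends on the share of changed features, so the simulated rates do not give the recovery or the false calls of the fit to the arrays. The members, the 3 pathway lists and the markers were chosen with earlier results of these data known. Genes named are all members, the mutated genes, the markers, the 2 called genes with the largest mean on each side of each list, and the 3 genes nearest to the highest and the lowest member. Named outside that rule, with values seen, were gld-2, fog-3, puf-4 and neighbouring genes. No sequences were used here. Alternatives were median centring, 0 at the somatic markers, equal spread, leaving out each array, features on at least 2 arrays, robust eBayes, each row alone, an adjusted p under 0.01 and limma treat. Figures were drawn with matplotlib 3.10.9.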

Additional observations from a re-analysis of the deposited data

How the results depend on the processing

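No paired analysis was possible because all arrays form 1 group and each ratio already pairs the 2 preps of its array. The number of PUF features called higher in fem-1(lf) was 6 and lay between 5 and 7 in every alternative run (5 to 6 without 1 prep). The number higher in fem-3(gf) was 0 and became 1 with each row on its own. With 0 at the somatic markers the fem-1(lf) side held 76.0% of all calls, and 47.0% as deposited. Deadenylation genes higher in fem-3(gf) went from 1 to 0 with 0 at the somatic markers and under treat, and those higher in fem-1(lf) from 6 to 0 under treat. Targets higher in fem-3(gf) went from 2 to 3 with features on at least 2 arrays, to 1 after either centring, at an adjusted p under 0.01 and without any 1 prep (1 to 1), and to 0 under treat, and those higher in fem-1(lf) from 14 to 7 under treat. With 1 prep left out, the mean of puf-9 ranged from -0.088 to 0.105 and that of fem-1 from -0.036 to 0.16. With 0 at the somatic markers they were 0.39 and 0.41, and the 2 rows of puf-9 alone gave 0.47 and -0.44. The difference of puf-5 minus puf-7 ranged from -0.12 without prep 1 to 1.17 without prep 2. Beyond the fewer arrays, the cause of these changes was not tested.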

Other observations

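The array also held a row for puf-4, which the gene table lists as a pseudogene of the family and which was not among the members. It gave -0.32, -0.74 and -0.69 on the arrays of preps 1, 2 and 3 (-0.58 ± 0.23, SD, n = 3, limma adjusted p = 0.018), on the fem-3(gf) side, where 6 of the 8 member features were on the other. Whether this spot reports puf-4 or RNA of another gene was not tested.

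The protein-coding genes next to each member in the gene table were also looked at. Of 19 different neighbours 12 were tested, and 7 were higher in fem-1(lf), 1 was higher in fem-3(gf) and 4 did not pass, with a median log2 ratio of 0.62 (all features: 21.0%, 23.7% and -0.10). The highest was dcap-2, the gene of an mRNA decapping enzyme, beside puf-3, at 0.996 ± 0.25 (SD, n = 3, limma adjusted p = 0.003). The neighbour that was lower in fem-1(lf) was dct-11, at -0.50 ± 0.07 (adjusted p = 0.017), beside puf-9 on the X chromosome. The gene between fbf-1 and fbf-2, F21H12.3, was at 0.67 ± 0.09 (adjusted p = 0.0066), while fbf-2 was at 0.08.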
